A study of Mus musculus with 84 samples.

Results

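Interferon response genes are the genes that cells switch on when interferons, the secreted proteins of antiviral defence, bind their receptors. Their levels were examined here in the livers of pregnant mice of 14 strains with and without TCDD, from a list of 43 gene symbols. Of the 43, 41 had a row in the count files and passed the filter on low counts, so they are 41 of the 16195 genes tested and of 37310 gene IDs in the files. Gbp6 and Psmb9 are not analysed here. By role the 41 genes were 4 sensors of foreign nucleic acid, 3 transcription factors, 7 genes of the oligoadenylate synthetase (OAS) family, 10 IFIT and other antiviral effectors, 6 genes of the ubiquitin-like and ADP-ribosyl system, 7 interferon-induced GTPases, 2 genes of antigen processing and 2 chemokines.

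Type I interferons act through a receptor whose kinases phosphorylate STAT proteins. STAT2 joins IRF9 in the complex that binds interferon-stimulated response elements (ISRE) in promoters, and IRF7, itself induced, feeds back on interferon production. Interferon gamma acts at gamma-activated sites (GAS) and is the stronger inducer of the GTPase and chemokine genes. In liver, hepatocytes respond to interferons, and Kupffer cells, the resident macrophages, sense microbial products and respond to interferons as well.

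RNA was sequenced from 84 livers of pregnant females, 3 libraries for each of 28 groups. The TCDD groups had 2,3,7,8-tetrachlorodibenzo-p-dioxin, a dioxin that activates the aryl hydrocarbon receptor, at 0.1 µg/kg per day in peanut butter on 10 consecutive days, with tissue taken on day 11. The vehicle groups had the peanut butter vehicle. Per the labels the females were aged 6 to 8 weeks when dosing began and 7 to 9 weeks at its end. Of the 14 strains 3 were recombinant inbred lines from C57BL/6J and DBA/2J parents, namely BXD-40/TyJ, BXD91/2RwwJ and BXD100/RwwJ. CC019/TauUnc belongs to the Collaborative Cross. The others, all inbred, were FVB/NJ, 129S1/SVIMJ, BALB/CJ, A/J, NZO/HILTJ, DBA1/J, C57BL6/J, NOD/SHILTJ, CBA/J and C3HeB/FeJ. No transgene or deletion is labelled. Whether every library stands for a separate mouse is not labelled, and the p-values cover the spread between these libraries, which may be technical.

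Letters of the ISRE are shown in the promoters of 4 genes that hold the motif and whose levels recur in the comparisons below. The windows run from 250 bases before to 50 bases after the transcription start in the RefSeq entry of the C57BL/6J reference (GRCm38.p6), and capitals mark the ISRE motif searched, GAAA then any 2 bases (NN) then GAAA, on either strand. The window of Isg15, the ubiquitin-like modifier, lies at chr4:156200769-156201068 on the minus strand, that of the guanylate-binding protein gene Gbp3 at chr3:142559794-142560093, that of its neighbour Gbp2 at chr3:142620413-142620712 and that of the GTPase gene Igtp at chr11:58199306-58199605, the last 3 on the plus strand.
Isg15: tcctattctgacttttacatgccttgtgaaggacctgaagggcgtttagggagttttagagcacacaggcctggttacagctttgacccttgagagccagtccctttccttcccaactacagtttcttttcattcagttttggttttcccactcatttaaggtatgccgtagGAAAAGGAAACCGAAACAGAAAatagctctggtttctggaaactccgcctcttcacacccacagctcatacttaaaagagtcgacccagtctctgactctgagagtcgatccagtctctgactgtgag
Gbp3: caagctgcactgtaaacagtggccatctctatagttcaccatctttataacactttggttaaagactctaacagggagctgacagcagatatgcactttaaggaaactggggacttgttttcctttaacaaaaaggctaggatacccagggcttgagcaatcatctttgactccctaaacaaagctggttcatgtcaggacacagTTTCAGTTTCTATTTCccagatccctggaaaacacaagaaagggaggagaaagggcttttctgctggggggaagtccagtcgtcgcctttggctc
Gbp2: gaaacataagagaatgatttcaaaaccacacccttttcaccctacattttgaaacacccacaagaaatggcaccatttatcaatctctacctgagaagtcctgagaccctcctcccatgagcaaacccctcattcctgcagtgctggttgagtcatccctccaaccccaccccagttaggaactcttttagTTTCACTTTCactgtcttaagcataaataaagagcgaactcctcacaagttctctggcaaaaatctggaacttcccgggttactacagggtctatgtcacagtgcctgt
Igtp: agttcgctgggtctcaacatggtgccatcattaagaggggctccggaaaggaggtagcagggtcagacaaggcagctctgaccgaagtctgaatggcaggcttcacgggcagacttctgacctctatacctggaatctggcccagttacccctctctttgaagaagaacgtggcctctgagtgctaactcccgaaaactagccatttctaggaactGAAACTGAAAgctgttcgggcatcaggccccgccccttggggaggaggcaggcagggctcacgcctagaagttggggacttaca
In Isg15 the motif occurred 3 times, overlapping, with first bases 78, 72 and 66 bases before the start. Gbp3 held 2 overlapping matches on the minus strand, 45 and 39 bases before the start, Gbp2 held 1 on the minus strand at 59 and Igtp 1 at 34. Of the 41 genes 31 had a promoter entry. The motif was in 18 of the 31, against 3.44% of all 32851 promoters in the table. Irf7, Oasl1, Oasl2 and Xaf1, described at length below, had an entry without the motif, and Mx2 and Usp18 had no entry. The GAS motif TTCNNNGAA, counted separately, was in 8 of the 31, against 8.30% of all promoters. A match is a string of letters in the reference genome, and the other strains were not read.

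The libraries held 9122406 to 19689624 counts in genes (median 16202909). Cyp1a1 and Cyp1a2, the P450 genes that the aryl hydrocarbon receptor switches on, rose on average by 5.08 ± 0.31 and 2.29 ± 0.12 on the log2 scale (± SE), with higher means under TCDD in 12 and 14 of the 14 strains, while Nqo1 and Tiparp were not called. Hepatocyte markers (6 genes) summed to 57069 to 104729 CPM (counts scaled to a common total of gene counts per library, without TMM factors) in TCDD livers and to 55337 to 101479 CPM in vehicle livers. Markers of other tissues stood out in A/J vehicle replicate 2 (muscle, adrenal cortex and pancreas) and BXD-40/TyJ vehicle replicate 1 (adrenal cortex), and markers of male liver in the C57BL6/J library labelled TCDD replicate 3.

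To place each library, the log2 CPM of the 41 genes were averaged after subtracting each gene's mean over the 84 libraries. This member level ran from −1.30 to 0.52 with a median of 0.05 in the 42 TCDD libraries, and from −1.56 to 1.61 with a median of 0.14 in the 42 vehicle libraries. Its ends were held by 3 libraries. A/J vehicle replicate 3 stood at 1.61, beside 0.25 and −0.16 in the other A/J vehicle libraries. CC019/TauUnc vehicle replicate 1 stood at −1.56 beside −0.51 and −0.64, and 129S1/SVIMJ TCDD replicate 1 at −1.30 beside −0.43 and −0.29. All 6 FVB/NJ libraries lay low, at −0.34, −0.77 and −0.69 under TCDD and −0.55, −0.59 and −0.64 in vehicle. Group means include these 3 libraries. Calls that ended when 1 of them was left out are named or counted for tests over all strains and for the strain of that library. Calls of other strains, whose reference mean includes that library, were not rerun without it alone.

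**Figure D1:**
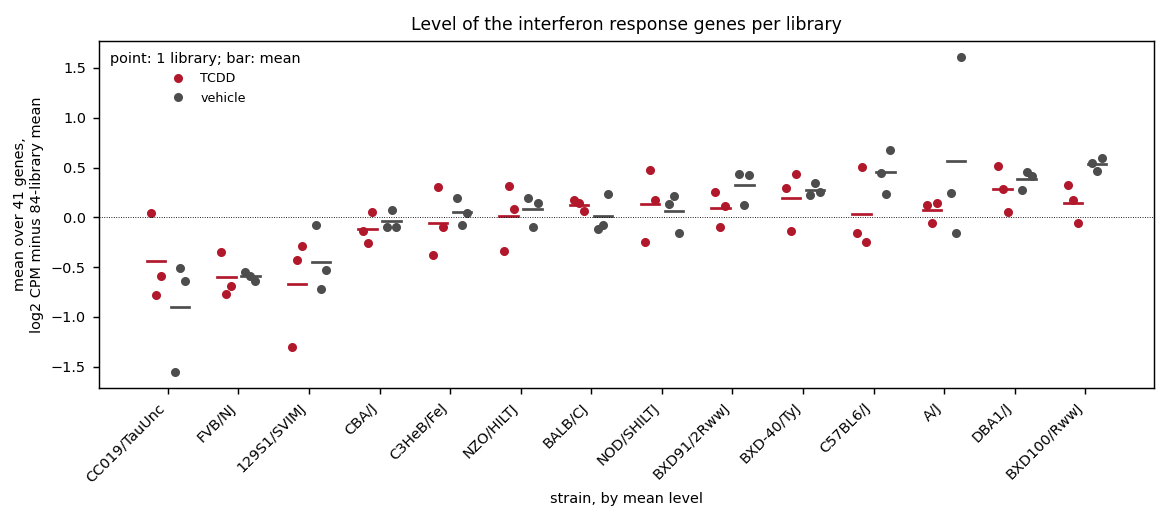
Mean level of the 41 interferon response genes (vertical axis, log2 CPM minus the mean over 84 libraries) in each library (points) of the 14 strains (horizontal axis), TCDD in red and vehicle in grey, with bars at the mean of 3. CC019/TauUnc, FVB/NJ and 129S1/SVIMJ have the lowest means, and A/J vehicle replicate 3 stands alone at 1.61.

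Across strains, the levels of most of these genes differed in both treatment groups. Among the TCDD livers 27 of the 41 genes differed between the 14 strains, against 45.3% of all genes tested, and among the vehicle livers 36 did, against 46.8% of all genes (edgeR's quasi-likelihood test of 13 contrasts together, Benjamini-Hochberg adjusted p below 0.05, here a call). For 25 genes both tests called, and over all genes the share called by both cannot exceed 45.3%. The counts by role given below are to be read beside the same shares of all genes, 45.3% under TCDD and 46.8% in vehicle. The TCDD and vehicle libraries are separate, so neither test shares a library with the other. The 5 genes not called among the vehicle livers were Trim25, Ddx58, Ifih1, Oas1b and Ifi35, of which Trim25 and Ifi35 were called among the TCDD livers. Without 129S1/SVIMJ TCDD replicate 1 the TCDD calls of Irf9, Oas2, Rsad2, Igtp and Psmb8 ended (adjusted p = 0.0743 to 0.127). Without A/J vehicle replicate 3 the vehicle calls of Parp14 (adjusted p = 0.0790) and Gbp7 (adjusted p = 0.0555) ended, and without CC019/TauUnc vehicle replicate 1 none did.

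**Figure D2:**
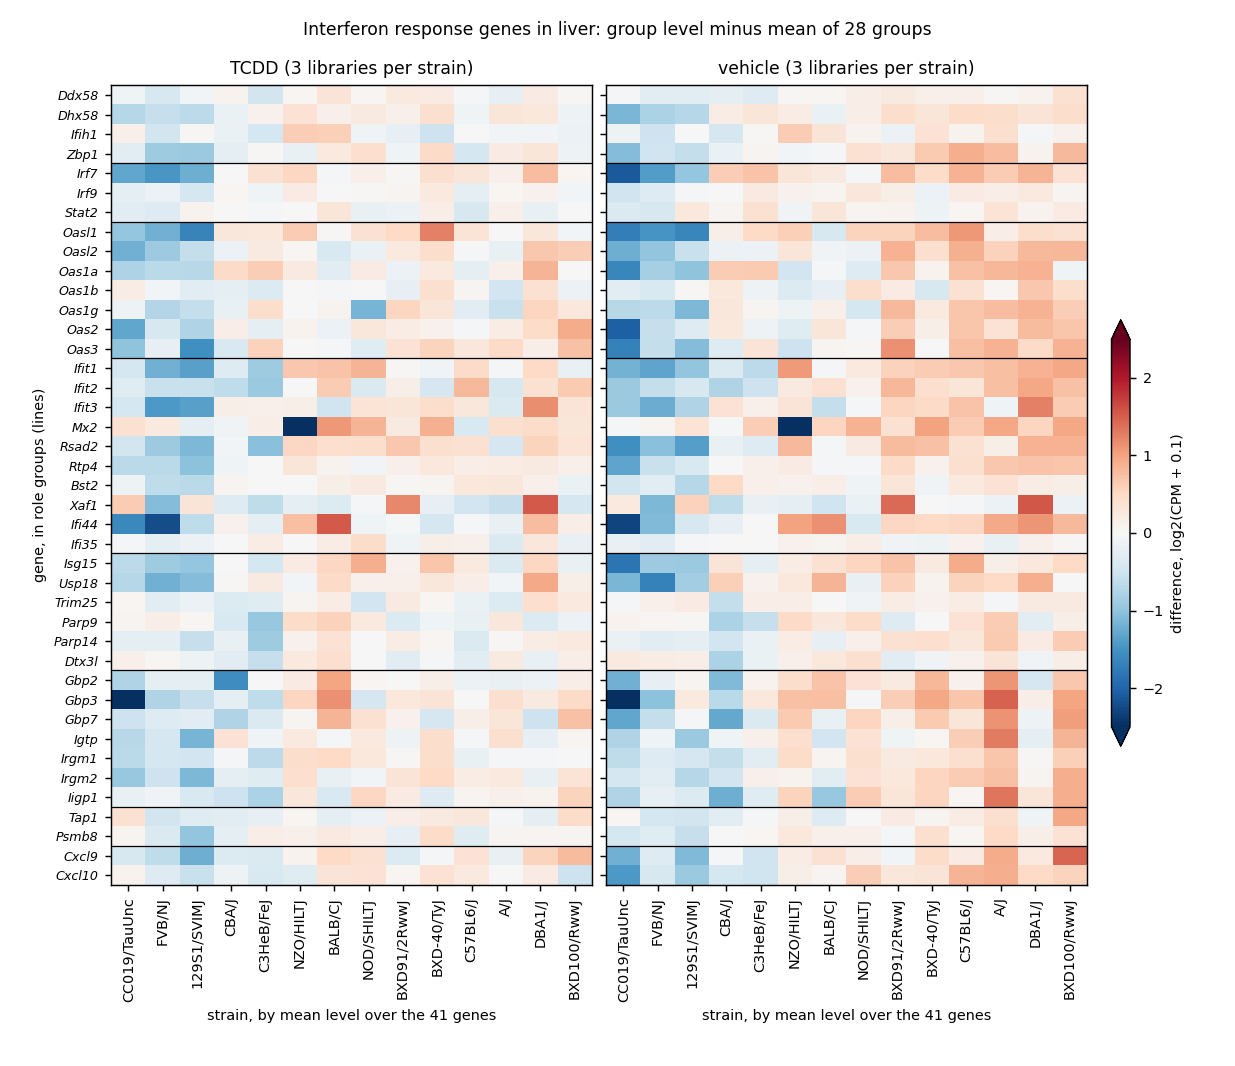
Group level of each of the 41 genes (rows, in role groups separated by lines) minus its mean over the 28 groups, in log2(CPM + 0.1), for the 14 strains (columns) under TCDD (left) and in vehicle (right). Blue columns at the left of both panels are CC019/TauUnc, FVB/NJ and 129S1/SVIMJ, and the dark blue cells of Mx2 are NZO/HILTJ.

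The 3 transcription factors were all called in both treatment groups, and Irf7 (ENSMUSG00000025498.7) spread widest. Irf7 averaged (CPM ± SD of 3 TCDD libraries) 17.5 ± 1.94 in FVB/NJ, 21.0 ± 10.4 in CC019/TauUnc, 21.7 ± 7.82 in 129S1/SVIMJ, 48.1 ± 14.7 in BALB/CJ, 49.6 ± 11.8 in CBA/J, 49.7 ± 10.5 in BXD91/2RwwJ and 50.9 ± 13.1 in BXD100/RwwJ. The other TCDD groups had 52.7 ± 4.98 in A/J, 54.5 ± 16.7 in NOD/SHILTJ, 60.7 ± 13.1 in C57BL6/J, 62.8 ± 1.87 in C3HeB/FeJ, 64.3 ± 11.9 in BXD-40/TyJ, 70.2 ± 15.2 in NZO/HILTJ and 86.3 ± 28.9 in DBA1/J. The 3 low strains did not overlap the other 11 in any TCDD library. Irf7 averaged (CPM ± SD of 3 vehicle libraries) 12.9 ± 7.33 in CC019/TauUnc, 18.8 ± 4.92 in FVB/NJ, 25.2 ± 6.69 in 129S1/SVIMJ, 48.0 ± 8.43 in NOD/SHILTJ, 56.7 ± 8.83 in BALB/CJ, 60.1 ± 11.2 in NZO/HILTJ and 62.3 ± 4.66 in BXD100/RwwJ. The other vehicle groups had 66.5 ± 4.93 in BXD-40/TyJ, 73.7 ± 6.16 in CBA/J, 79.2 ± 12.8 in C3HeB/FeJ, 82.2 ± 6.53 in BXD91/2RwwJ, 86.8 ± 10.1 in DBA1/J, 87.7 ± 6.89 in C57BL6/J and 98.9 ± 88.1 in A/J. FVB/NJ, 129S1/SVIMJ and CC019/TauUnc were again the lowest 3, and the large SD of A/J came from replicate 3, without which the A/J mean was 48.8 CPM. The strain difference had an adjusted p of 8.4e-07 under TCDD and 1.0e-09 in vehicle. Irf9 and Stat2, the DNA-binding and the activating subunit of the type I complex, spread less. Group means of Irf9 differed by at most 1.57 times under TCDD and 1.68 times in vehicle, and those of Stat2 by at most 1.62 and 1.71 times.

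Among the OAS family, whose enzymes make the signal that activates RNase L, 5 of 7 genes were called under TCDD and 6 of 7 in vehicle. Oasl1 (ENSMUSG00000041827.8), an OAS-like gene whose protein lacks the synthetase activity, varied most under TCDD. Oasl1 averaged (CPM ± SD of 3 TCDD libraries) 3.29 ± 1.22 in 129S1/SVIMJ, 4.57 ± 1.33 in FVB/NJ, 5.66 ± 2.93 in CC019/TauUnc, 9.80 ± 0.586 in BXD100/RwwJ, 10.3 ± 1.28 in A/J, 10.6 ± 1.97 in BALB/CJ and 12.4 ± 1.81 in C3HeB/FeJ. TCDD values were higher, at 12.7 ± 3.03 in CBA/J, 13.4 ± 5.96 in DBA1/J, 13.8 ± 3.41 in NOD/SHILTJ, 14.1 ± 5.90 in C57BL6/J, 15.2 ± 5.27 in BXD91/2RwwJ, 16.6 ± 5.34 in NZO/HILTJ and 27.7 ± 14.3 in BXD-40/TyJ. The BXD-40/TyJ mean was made of 40.9, 12.5 and 29.8 CPM, and the 3 lowest strains did not exceed 9.005 CPM in any library, which overlapped C57BL6/J, DBA1/J and BALB/CJ. Oasl1 averaged (CPM ± SD of 3 vehicle libraries) 3.34 ± 1.004 in 129S1/SVIMJ, 3.70 ± 0.862 in FVB/NJ, 3.80 ± 2.48 in CC019/TauUnc, 7.82 ± 1.24 in BALB/CJ, 11.5 ± 2.05 in CBA/J, 12.4 ± 5.02 in A/J and 14.01 ± 5.47 in BXD100/RwwJ. Vehicle values were higher, at 14.2 ± 3.75 in DBA1/J, 15.01 ± 4.28 in C3HeB/FeJ, 15.1 ± 1.09 in NOD/SHILTJ, 15.3 ± 3.10 in BXD91/2RwwJ, 16.1 ± 4.39 in NZO/HILTJ, 17.7 ± 2.96 in BXD-40/TyJ and 22.0 ± 2.20 in C57BL6/J. Highest was C57BL6/J, with 24.5, 21.2 and 20.3 CPM. The adjusted p was 1.5e-07 under TCDD and 2.5e-08 in vehicle. Oasl2 (ENSMUSG00000029561.10), its active relative, had the same 3 strains lowest. Oasl2 averaged (CPM ± SD of 3 TCDD libraries) 2.43 ± 0.751 in CC019/TauUnc, 2.89 ± 0.127 in FVB/NJ, 3.60 ± 0.175 in 129S1/SVIMJ, 4.37 ± 1.33 in BALB/CJ, 4.91 ± 0.939 in A/J, 4.98 ± 0.0870 in CBA/J and 5.08 ± 1.53 in NOD/SHILTJ. Next under TCDD came 5.90 ± 1.88 in NZO/HILTJ, 6.53 ± 1.27 in C3HeB/FeJ, 6.66 ± 4.80 in C57BL6/J, 6.81 ± 2.33 in BXD91/2RwwJ, 7.85 ± 2.68 in BXD-40/TyJ, 8.60 ± 1.23 in BXD100/RwwJ and 9.14 ± 2.67 in DBA1/J. Oasl2 averaged (CPM ± SD of 3 vehicle libraries) 2.32 ± 0.341 in CC019/TauUnc, 2.84 ± 0.981 in FVB/NJ, 3.78 ± 0.855 in 129S1/SVIMJ, 5.02 ± 0.760 in CBA/J, 5.11 ± 1.42 in NOD/SHILTJ, 5.19 ± 1.61 in C3HeB/FeJ and 5.29 ± 1.03 in BALB/CJ. Next in vehicle came 6.81 ± 0.325 in NZO/HILTJ, 7.57 ± 2.11 in BXD-40/TyJ, 9.80 ± 6.98 in A/J, 9.86 ± 1.22 in DBA1/J, 9.95 ± 1.48 in BXD100/RwwJ, 10.2 ± 0.588 in BXD91/2RwwJ and 10.3 ± 1.34 in C57BL6/J. Its adjusted p was 2.5e-05 under TCDD and 1.2e-07 in vehicle. The synthetase genes Oas1a, Oas2 and Oas3 were called in both treatment groups and Oas1g in vehicle, with group means that differed by 3.33 to 5.00 times under TCDD (Oas1a, Oas2, Oas3) and 3.78 to 7.96 times in vehicle (all 4). Oas1b was called in neither. The Oas1 genes lie in a cluster of near copies, so their reads may be divided uncertainly.

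Of the 10 IFIT and other antiviral effectors 8 were called under TCDD and 9 in vehicle. Xaf1 (ENSMUSG00000040483.9), which encodes a partner of the apoptosis inhibitor XIAP, had the smallest p of them after Mx2. Xaf1 averaged (CPM ± SD of 3 TCDD libraries) 4.21 ± 1.09 in FVB/NJ, 5.81 ± 1.83 in C3HeB/FeJ, 5.91 ± 0.533 in A/J, 6.56 ± 2.25 in C57BL6/J, 6.94 ± 0.654 in BALB/CJ, 7.03 ± 3.16 in BXD100/RwwJ and 7.05 ± 0.977 in CBA/J. Above these under TCDD were 7.65 ± 0.818 in BXD-40/TyJ, 7.69 ± 1.83 in NZO/HILTJ, 9.10 ± 3.77 in NOD/SHILTJ, 12.03 ± 5.32 in 129S1/SVIMJ, 14.5 ± 6.36 in CC019/TauUnc, 20.6 ± 3.58 in BXD91/2RwwJ and 26.1 ± 4.93 in DBA1/J. DBA1/J had 25.6, 31.2 and 21.4 CPM and BXD91/2RwwJ 24.2, 16.996 and 20.8 CPM, and apart from 1 CC019/TauUnc library at 21.8 CPM no TCDD library of another strain exceeded 15.5 CPM. Xaf1 averaged (CPM ± SD of 3 vehicle libraries) 4.07 ± 0.920 in FVB/NJ, 5.74 ± 1.41 in CBA/J, 6.28 ± 1.33 in BALB/CJ, 7.57 ± 1.04 in NZO/HILTJ, 7.84 ± 1.94 in C3HeB/FeJ, 7.999 ± 0.714 in BXD100/RwwJ and 8.11 ± 2.26 in NOD/SHILTJ. Above these in vehicle were 8.63 ± 0.819 in C57BL6/J, 8.80 ± 5.14 in A/J, 9.09 ± 2.28 in BXD-40/TyJ, 11.2 ± 4.78 in CC019/TauUnc, 14.4 ± 7.76 in 129S1/SVIMJ, 23.7 ± 1.92 in BXD91/2RwwJ and 26.4 ± 4.69 in DBA1/J. In vehicle DBA1/J had 24.0, 23.4 and 31.8 CPM and BXD91/2RwwJ 25.9, 22.4 and 22.8 CPM, and 129S1/SVIMJ replicate 1 reached 23.1 CPM. The other 2 BXD lines, BXD100/RwwJ and BXD-40/TyJ, lay with the remaining strains. The adjusted p was 1.1e-10 under TCDD and 1.7e-10 in vehicle.

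Mx2 (ENSMUSG00000023341.8), which encodes a dynamin-like antiviral GTPase, was all but missing from NZO/HILTJ. It had 0, 0 and 0 counts in the TCDD libraries of that strain and 4, 1 and 0 counts in the vehicle libraries. Mx2 averaged (CPM ± SD of 3 TCDD libraries) 0 ± 0 in NZO/HILTJ, 5.38 ± 2.97 in C57BL6/J, 5.71 ± 2.31 in 129S1/SVIMJ, 6.30 ± 2.06 in CBA/J, 7.59 ± 0.731 in FVB/NJ, 7.59 ± 1.15 in BXD91/2RwwJ and 8.35 ± 5.92 in C3HeB/FeJ. The 7 higher TCDD groups had 8.46 ± 3.97 in BXD100/RwwJ, 8.58 ± 1.16 in A/J, 8.93 ± 1.95 in DBA1/J, 9.44 ± 5.86 in CC019/TauUnc, 11.99 ± 2.33 in BXD-40/TyJ, 12.7 ± 7.10 in NOD/SHILTJ and 13.8 ± 0.876 in BALB/CJ. Mx2 averaged (CPM ± SD of 3 vehicle libraries) 0.105 ± 0.131 in NZO/HILTJ, 6.23 ± 0.281 in CBA/J, 6.64 ± 2.77 in CC019/TauUnc, 6.73 ± 0.642 in FVB/NJ, 8.42 ± 2.28 in 129S1/SVIMJ, 9.10 ± 4.17 in BXD91/2RwwJ and 9.54 ± 2.18 in BALB/CJ. The 7 higher vehicle groups had 10.4 ± 6.29 in DBA1/J, 10.4 ± 3.28 in C57BL6/J, 10.6 ± 4.24 in C3HeB/FeJ, 12.1 ± 3.19 in NOD/SHILTJ, 12.6 ± 1.04 in BXD100/RwwJ, 12.9 ± 3.30 in A/J and 13.03 ± 1.10 in BXD-40/TyJ. No library of another strain was below 2.96 CPM under TCDD or 4.35 CPM in vehicle. Against 8.93 CPM in the other 13 strains, the TCDD level in NZO/HILTJ was at least 147.2-fold lower, taking 3 counts over the group as the floor (0.0607 CPM). With the upper end of a 95% interval of counting error (0.0746 CPM) in place of that floor, the bound was 119.7-fold. The vehicle level of 0.101 CPM (5 counts in all) was 96.7-fold below the 9.79 CPM of the other 13, with a 95% interval of 41.4 to 298 that covers counting error only. The adjusted p of the strain difference was 2.1e-12 under TCDD and 3.1e-11 in vehicle. NZO/HILTJ also moved the comparisons of Mx2 in other strains: 7 of the other 13 strains were called higher than the rest under TCDD and 4 in vehicle, and 0 in either once NZO/HILTJ was left out of the strains averaged. The sister gene Mx1, named after its values were seen, ran the other way, with 9.76, 16.7 and 9.63 CPM in NZO/HILTJ TCDD livers against 0.433 to 4.84 CPM in the other 39 TCDD libraries, and 14.0, 7.73 and 15.5 CPM in NZO/HILTJ vehicle livers against 0.0577 to 4.11 CPM in the other 39 vehicle libraries. Mx1 and Mx2 share sequence.

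Low levels in FVB/NJ or CC019/TauUnc recurred among the other effectors. Ifit3, of the family whose proteins bind foreign RNA, averaged 5.54 CPM in FVB/NJ and 34.2 CPM in DBA1/J under TCDD, and 6.44 and 36.2 CPM in the same strains in vehicle. Ifi44 ran from 0.597 CPM in FVB/NJ to 7.77 CPM in BALB/CJ under TCDD, and from 0.475 CPM in CC019/TauUnc to 6.11 CPM in A/J in vehicle. Without A/J vehicle replicate 3, at 11.8 CPM, the A/J mean was 3.27 CPM and DBA1/J was highest at 6.00 CPM. Rsad2 (viperin), Rtp4 and the virion-tethering gene Bst2 were called in both treatment groups, and Ifit1 and Ifit2 in vehicle. Ifi35 was called under TCDD only, with NOD/SHILTJ highest. The change of a call between treatment groups is not a test of their difference.

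In the ubiquitin-like and ADP-ribosyl system 5 of 6 genes were called in each treatment group. Usp18 (ENSMUSG00000030107.9) encodes the protease that removes ISG15 and damps the receptor. Usp18 averaged (CPM ± SD of 3 TCDD libraries) 5.84 ± 2.69 in FVB/NJ, 6.54 ± 3.82 in 129S1/SVIMJ, 8.08 ± 2.84 in CC019/TauUnc, 12.2 ± 1.88 in NZO/HILTJ, 12.2 ± 2.85 in A/J, 13.3 ± 2.91 in CBA/J and 14.04 ± 2.23 in BXD91/2RwwJ. The remaining TCDD groups stood at 14.4 ± 4.80 in NOD/SHILTJ, 14.6 ± 5.42 in BXD100/RwwJ, 15.2 ± 6.47 in C57BL6/J, 15.2 ± 3.73 in C3HeB/FeJ, 16.0 ± 4.69 in BXD-40/TyJ, 17.9 ± 2.04 in BALB/CJ and 24.6 ± 2.59 in DBA1/J. Usp18 averaged (CPM ± SD of 3 vehicle libraries) 3.92 ± 0.696 in FVB/NJ, 5.77 ± 0.905 in CC019/TauUnc, 7.22 ± 2.73 in 129S1/SVIMJ, 11.3 ± 2.11 in NOD/SHILTJ, 12.99 ± 2.51 in BXD100/RwwJ, 13.6 ± 1.63 in BXD-40/TyJ and 13.8 ± 2.04 in C3HeB/FeJ. The remaining vehicle groups stood at 15.4 ± 2.42 in NZO/HILTJ, 18.98 ± 1.04 in BXD91/2RwwJ, 19.04 ± 4.68 in C57BL6/J, 19.4 ± 2.25 in CBA/J, 20.2 ± 12.5 in A/J, 23.7 ± 7.14 in BALB/CJ and 23.8 ± 1.59 in DBA1/J. FVB/NJ was lowest and DBA1/J highest in both treatment groups, and the FVB/NJ vehicle libraries, at 4.20, 4.44 and 3.13 CPM, lay below every vehicle library of the other strains. Its adjusted p was 1.2e-05 under TCDD and 1.4e-09 in vehicle. Isg15 averaged 6.49 CPM in FVB/NJ and 25.2 CPM in NOD/SHILTJ under TCDD, and 3.74 CPM in CC019/TauUnc and 23.01 CPM in C57BL6/J in vehicle. Parp9 and Dtx3l, whose products form a ligase complex and whose genes lie head to head, were called in both treatment groups, as group means that differed by 2.66 and 1.79 times under TCDD and 2.68 and 2.19 times in vehicle.

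The GTPases, which attack the vacuoles of intracellular microbes, were called for 4 of 7 genes under TCDD, all but Gbp2, Gbp7 and Iigp1, and 7 of 7 in vehicle. Gbp3 (ENSMUSG00000028268.8) was low in CC019/TauUnc in each of its libraries. Gbp3 averaged (CPM ± SD of 3 TCDD libraries) 2.10 ± 1.31 in CC019/TauUnc, 7.01 ± 2.25 in FVB/NJ, 8.59 ± 2.03 in NOD/SHILTJ, 8.96 ± 5.22 in 129S1/SVIMJ, 9.62 ± 1.34 in CBA/J and 12.1 ± 13.2 in C3HeB/FeJ. Higher TCDD means were 12.8 ± 7.98 in C57BL6/J, 13.5 ± 2.59 in DBA1/J, 13.7 ± 0.730 in BXD91/2RwwJ, 14.9 ± 5.82 in BXD-40/TyJ, 15.2 ± 2.61 in A/J, 16.5 ± 5.32 in BXD100/RwwJ, 17.7 ± 7.98 in NZO/HILTJ and 25.3 ± 1.5003 in BALB/CJ. CC019/TauUnc had 3.42, 0.803 and 2.08 CPM, so that its highest library lay above the lowest C3HeB/FeJ and 129S1/SVIMJ libraries. Gbp3 averaged (CPM ± SD of 3 vehicle libraries) 1.02 ± 0.168 in CC019/TauUnc, 5.75 ± 1.91 in FVB/NJ, 7.49 ± 3.12 in CBA/J, 11.3 ± 2.33 in NOD/SHILTJ, 13.4 ± 5.01 in DBA1/J, 14.4 ± 6.10 in 129S1/SVIMJ and 15.1 ± 7.35 in C3HeB/FeJ. Higher vehicle means were 18.3 ± 6.08 in BXD91/2RwwJ, 19.1 ± 1.85 in NZO/HILTJ, 19.4 ± 4.18 in BALB/CJ, 20.0 ± 8.98 in C57BL6/J, 22.4 ± 2.71 in BXD-40/TyJ, 23.2 ± 5.80 in BXD100/RwwJ and 47.3 ± 51.6 in A/J. In vehicle CC019/TauUnc had 1.21, 0.943 and 0.905 CPM, below every other vehicle library. The A/J vehicle mean was made of 20.5, 14.6 and 107 CPM, and without replicate 3 it was 17.6 CPM, below BXD100/RwwJ. The adjusted p was 5.5e-04 under TCDD and 1.7e-08 in vehicle, and 5.5e-08 in vehicle without A/J replicate 3. Igtp (ENSMUSG00000078853.2) was lowest in 129S1/SVIMJ. Igtp averaged (CPM ± SD of 3 TCDD libraries) 27.5 ± 6.48 in 129S1/SVIMJ, 39.2 ± 16.5 in CC019/TauUnc, 45.9 ± 10.7 in FVB/NJ, 53.4 ± 12.9 in DBA1/J, 55.8 ± 8.40 in BXD91/2RwwJ, 57.6 ± 12.5 in C3HeB/FeJ and 59.2 ± 11.9 in BALB/CJ. In the other TCDD groups the mean was 63.7 ± 9.10 in BXD100/RwwJ, 65.0 ± 37.1 in C57BL6/J, 73.0 ± 18.2 in NOD/SHILTJ, 76.6 ± 32.8 in NZO/HILTJ, 78.1 ± 7.60 in CBA/J, 84.4 ± 24.2 in BXD-40/TyJ and 85.1 ± 38.0 in A/J. Igtp averaged (CPM ± SD of 3 vehicle libraries) 32.2 ± 6.55 in 129S1/SVIMJ, 39.9 ± 19.8 in CC019/TauUnc, 43.6 ± 8.99 in BALB/CJ, 50.8 ± 1.90 in DBA1/J, 55.6 ± 0.704 in CBA/J, 55.9 ± 3.06 in BXD91/2RwwJ and 56.3 ± 11.2 in FVB/NJ. In the other vehicle groups the mean was 62.5 ± 4.98 in BXD-40/TyJ, 66.2 ± 11.4 in C3HeB/FeJ, 77.8 ± 7.79 in NOD/SHILTJ, 81.3 ± 7.18 in NZO/HILTJ, 93.8 ± 15.6 in C57BL6/J, 109 ± 8.58 in BXD100/RwwJ and 258 ± 320.3 in A/J. The A/J vehicle mean was made of 84.9, 61.7 and 628 CPM. The adjusted p of Igtp was 0.0263 under TCDD, 0.0889 under TCDD without 129S1/SVIMJ replicate 1, 5.1e-08 in vehicle, and 3.6e-05 in vehicle without A/J replicate 3. Genes of the Gbp and Irgm families are near copies of one another, and their reads may be divided uncertainly.

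**Figure D3:**
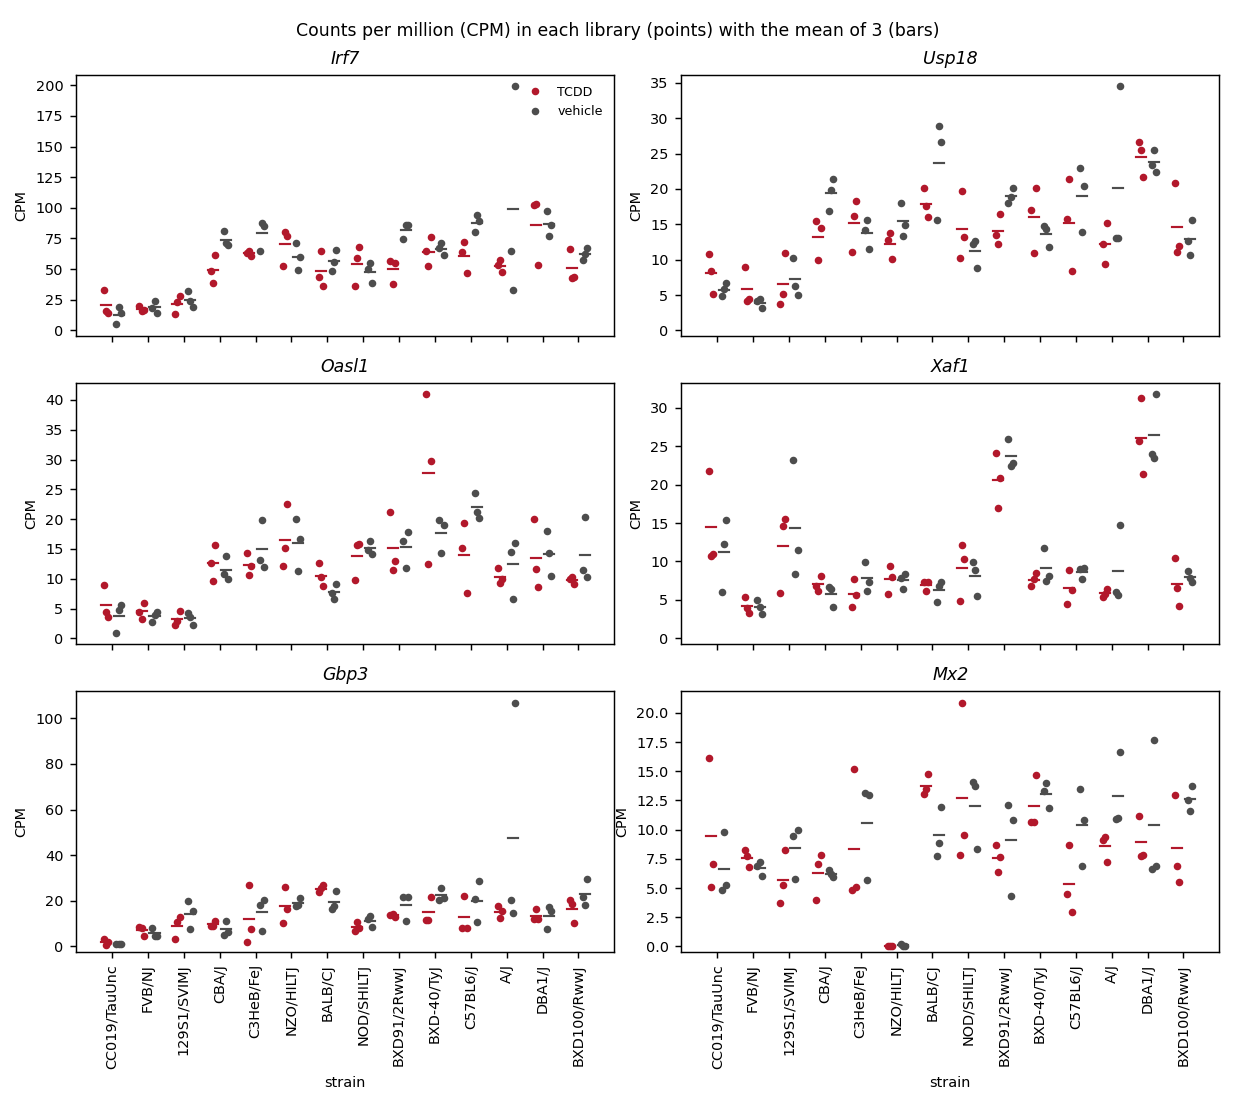
CPM (vertical axes) of 6 of the 8 genes with the smallest p in vehicle in each library (points) with means of 3 (bars), strains ordered by member level, TCDD in red left of vehicle in grey. Irf7, Usp18 and Oasl1 are low in the 3 strains at the left, Xaf1 is high in BXD91/2RwwJ and DBA1/J, Gbp3 is near 0 in CC019/TauUnc and Mx2 is at or near 0 in NZO/HILTJ.

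The sensors, which detect foreign RNA or DNA in the cytoplasm, were called for 1 of 4 genes under TCDD and 2 of 4 in vehicle. The shares of all genes were 45.3% and 46.8%. Dhx58 was called in both treatment groups, Zbp1 in vehicle, and Ddx58 and Ifih1 in neither. Both antigen processing genes were called in vehicle and Psmb8, an immunoproteasome subunit, also under TCDD. The chemokines Cxcl9 and Cxcl10, which draw T cells to inflamed tissue, were called in vehicle and not under TCDD. Highest in vehicle was A/J for both, with means of 37.5 CPM of Cxcl9 and 10.2 CPM of Cxcl10. Without replicate 3 the A/J means were 7.33 and 2.78 CPM, and the strain difference was still called (adjusted p = 5.7e-04 for Cxcl9 and 0.00145 for Cxcl10).

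To ask which strain held the high or low levels, each strain was set against the mean of the other 13 of the same treatment. Summed over the 14 strains, 64 differences were called under TCDD and 98 in vehicle, against 8.44% and 8.94% of all gene and strain pairs tested. These include the Mx2 calls of strains other than NZO/HILTJ, 7 under TCDD and 4 in vehicle. All of them ended once NZO/HILTJ was left out of the strains averaged, also where this is not repeated below. Of the 64 TCDD calls 38 (59.4%) were also called in vehicle in the same direction and 0 in the opposite one, which is 38.8% of the 98 vehicle calls. Over all genes 49.6% of the TCDD calls and 46.8% of the vehicle calls were shared in this way. Counts given below with a library left out mostly lack the share of all genes called in the same fit. That share moves too when a library is left out, so a change in such a count is not particular to these genes.

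FVB/NJ, 129S1/SVIMJ and CC019/TauUnc carried the low levels. In FVB/NJ 10 genes were called under TCDD (9.08% of all genes) and all 10 were lower (4.17% of all genes were called lower). In vehicle 11 were called (6.55%) and all 11 were lower (2.71%). Under TCDD 38 of 41 differences were negative (median −0.48) and in vehicle 39 were (median −0.63), beside medians over all genes of 0.01 in both. Called in both were Irf7, Oasl1, Oasl2, Ifit3, Rtp4, Xaf1, Isg15 and Usp18. Usp18 had 8.94, 4.16 and 4.41 CPM in FVB/NJ TCDD livers (log2 difference −1.24 ± 0.27, adjusted p = 8.3e-04) and 4.20, 4.44 and 3.13 CPM in vehicle livers (−1.90 ± 0.28, adjusted p = 7.1e-07). Irf7 had 19.7, 16.2 and 16.5 CPM under TCDD (−1.52 ± 0.30, adjusted p = 2.3e-04) and 18.4, 23.9 and 14.03 CPM in vehicle (−1.64 ± 0.30, adjusted p = 7.7e-05). The counts fell to 7, 4 and 5 without TCDD replicates 1, 2 and 3, and to 8, 7 and 7 without vehicle replicates 1, 2 and 3, always lower. Kupffer cell markers (11 of 12 listed genes had a row, none at 0 in every library) summed to 642 to 879 CPM in FVB/NJ TCDD livers and 774 to 971 CPM in FVB/NJ vehicle livers, beside medians of 644 CPM over all TCDD and 700.3 CPM over all vehicle libraries. In bulk tissue, fewer cells of a type and less RNA per cell cannot be told apart.

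In 129S1/SVIMJ 13 genes were called under TCDD (6.54%), all lower (2.54%), and 11 in vehicle (7.91%), of which 10 were lower (3.37%) and Xaf1 was higher. Called lower in both were Dhx58, Irf7, Oasl1, Bst2, Isg15, Usp18, Igtp, Irgm2 and Psmb8. Oasl1 had 2.23, 2.997 and 4.63 CPM in 129S1/SVIMJ TCDD livers (−1.88 ± 0.34, adjusted p = 5.4e-05) and 4.20, 3.59 and 2.24 CPM in vehicle livers (−1.75 ± 0.34, adjusted p = 1.6e-04). Bst2 had 81.3, 162 and 174 CPM (−0.66 ± 0.17, adjusted p = 0.00623) and 158.2, 113 and 118 CPM (−0.78 ± 0.17, adjusted p = 9.0e-04). The TCDD count rested on replicate 1, in which 39 of 41 genes (share of all genes not given here) lay below both other libraries. Without it 1 gene was called, and 10 and 11 without replicates 2 and 3. In vehicle 10, 4 and 3 were called without replicates 1, 2 and 3. Kupffer markers summed to 232.6, 399 and 692 CPM in the 129S1/SVIMJ TCDD livers, lowest in replicate 1, where 11 of 11 lay below both other libraries, and to 304, 429 and 252 CPM in the vehicle livers. Their part in the result was not tested.

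In CC019/TauUnc 10 genes were called under TCDD (8.64%), of which 8 were lower (3.79%) and Xaf1 and Mx2 were higher, and 19 in vehicle (12.3%), all lower (6.34%). The call of Mx2 (0.94, adjusted p = 0.0178) ended without NZO/HILTJ among the strains averaged (0.16, adjusted p = 0.817). Called lower in both were Dhx58, Irf7, Oasl1, Oasl2, Oas2, Rtp4 and Gbp3. Gbp3 differed by −2.60 ± 0.48, adjusted p = 5.5e-05 under TCDD and −3.92 ± 0.54, adjusted p = 9.7e-08 in vehicle. Irf7 had 32.9, 15.5 and 14.5 CPM in CC019/TauUnc TCDD livers (−1.23 ± 0.29, adjusted p = 0.00236) and 4.97, 19.5 and 14.2 CPM in vehicle livers (−2.19 ± 0.32, adjusted p = 3.6e-07). TCDD replicate 1 was the higher of its group for both genes. The TCDD count was 10, 4 and 3 without replicates 1, 2 and 3, and the vehicle count 11, 19 and 15. Kupffer markers summed to 574, 280 and 374 CPM in the TCDD livers and to 164, 228 and 262.4 CPM in the vehicle livers. Of the other strains, only 129S1/SVIMJ TCDD replicate 1 and vehicle replicate 3 were below 262.4 CPM. Lymphocyte markers (15 genes) summed to 5.13 to 8.54 CPM and to 3.56 to 4.56 CPM. Their part in the result was not tested.

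FVB/NJ, 129S1/SVIMJ and CC019/TauUnc, set side by side after their values were seen, were the lowest 3 strains for 13 of the 41 genes under TCDD (0.642% of all genes) and for 18 in vehicle (0.797%). For 11 genes they were lowest in both treatment groups (0.161% of all genes): Dhx58, Irf7, Ifi44, Oasl2, Usp18, Oas2, Rtp4, Ifit1, Isg15, Oasl1 and Oas1a. Without the 3 libraries at the ends of the member level the counts were 12, 14 and 10. None of the 11 is a GTPase, an antigen processing gene or a chemokine. The Kupffer marker sums given above were near or above the median of all libraries in FVB/NJ and mostly below it in the other 2 strains, a difference that was not tested.

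**Figure D4:**
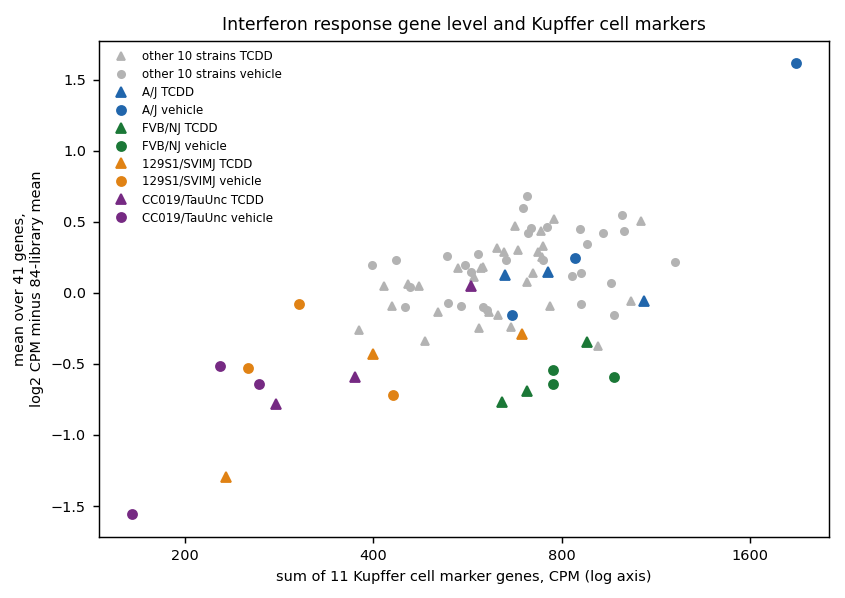
Member level (vertical axis, log2 CPM minus the 84-library mean) against the sum of 11 Kupffer cell marker genes (horizontal axis, CPM, log scale) in 84 libraries, TCDD as triangles and vehicle as circles. FVB/NJ (green) is low in level at 642 to 971 CPM of markers, CC019/TauUnc (purple) and 129S1/SVIMJ (orange) have 164 to 692 CPM and are also low apart from 1 library of each near 0, and A/J vehicle replicate 3 is at the upper right with 1898 CPM.

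A/J was called high in vehicle through 1 library. Under TCDD 1 gene was called in A/J (8.00% of all genes), Mx2, whose call ended with any 1 of the 3 libraries left out, and in vehicle 23 were (10.4%), all higher (7.06%). The leading genes were Igtp, with 65.1, 61.2 and 128.9 CPM in A/J TCDD livers and 84.9, 61.7 and 628 CPM in A/J vehicle livers (vehicle difference from the other 13 2.15 ± 0.24, adjusted p = 1.9e-10), and Gbp2, with 4.62, 4.36 and 8.41 CPM under TCDD and 5.40, 5.19 and 88.9 CPM in vehicle (2.37 ± 0.29, adjusted p = 1.4e-09). In vehicle replicate 3, 39 of the 41 genes lay above both other A/J vehicle libraries and 25 were the highest of all 84 libraries. The same shares over all genes are not given here. Without vehicle replicate 3, 0 of the 41 genes were called (5.16% of all genes were), Igtp differed by 0.26 (adjusted p = 0.702) and Gbp2 turned to −0.35 (0.665).

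The excess in this library differed between roles. Its level over the mean of the other 2 A/J vehicle libraries had a median of 2.53 over the 41 genes. By role the median ratio was 11.2 for the chemokines, 6.41 for the GTPases and 5.36 for antigen processing, and 2.25 for the OAS family, 2.13 for the antiviral effectors, 1.52 for the sensors, 1.48 for the ubiquitin-like and ADP-ribosyl system and 1.26 for the transcription factors. Single genes overlapped between roles. Ratios ran from 1.27 to 4.58 (Zbp1) in the sensors and from 1.25 to 4.07 (Irf7) in the transcription factors. They ran from 0.87 to 3.36 (Isg15) in the ubiquitin-like and ADP-ribosyl system, and from 4.45 to 16.8 in the GTPases. The T cell chemokine gene Cxcl9 had 98.0 CPM there, against 8.86 and 5.81 CPM, and the GTPase gene Iigp1 1106 CPM, against 148.9 and 174.9 CPM. Kupffer markers summed to 1898 CPM in replicate 3, the highest of the 84 libraries, against 839 and 665 CPM, with 11 of 11 genes above both other libraries. Lymphocyte markers summed to 29.2 CPM, also the highest, against 12.3 and 16.4 CPM, with 11 of 15 above both and 2 below both. Hepatocyte, dendritic and neutrophil markers were 1.11, 1.03 and 1.35 times the mean of the other 2. Ifng had 0 counts in the 3 A/J vehicle libraries. The part of these cells in the result was not tested.

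**Figure D5:**
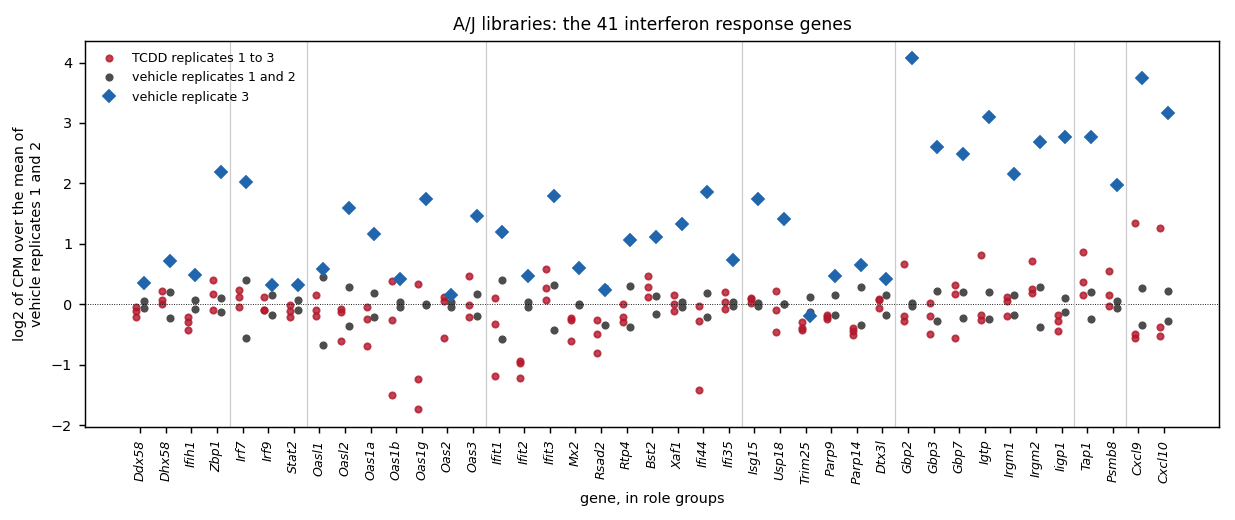
CPM of the 41 genes (horizontal axis, in role groups) in the 6 A/J libraries, as log2 of the ratio to the mean of vehicle replicates 1 and 2 (vertical axis), with TCDD in red, vehicle replicates 1 and 2 in grey and vehicle replicate 3 as blue diamonds. The diamonds reach 4 for Gbp2 and stand above 2 for the GTPases to the right, while none of the TCDD points reaches 2.

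The remaining strains had a few calls each. Percentages in brackets are the shares of all genes called in the same comparison, and many of the counts were near or below them. In DBA1/J 8 genes were called under TCDD (5.88%) and 5 in vehicle (5.03%), all higher, with Xaf1, Ifit3, Usp18 and Oasl2 in both. Ifit3 had 41.9, 33.1 and 27.6 CPM in DBA1/J TCDD livers (1.28 ± 0.22, adjusted p = 1.7e-05) and 35.2, 39.4 and 33.9 CPM in vehicle livers (1.24 ± 0.22, adjusted p = 3.9e-05). Xaf1 differed by 1.68 ± 0.20, adjusted p = 1.3e-09 and 1.59 ± 0.20, adjusted p = 8.0e-09. The counts were 3, 4 and 6 without TCDD replicates 1, 2 and 3, and 2, 3 and 3 without vehicle replicates 1, 2 and 3. In BXD91/2RwwJ Xaf1 was the 1 gene called under TCDD (5.90%; 1.30 ± 0.21, adjusted p = 3.5e-06), and Xaf1 (1.39 ± 0.21, adjusted p = 6.4e-07), Oas3 and Oasl2 were called in vehicle (6.46%), all higher. Oas3 had 4.28, 3.04 and 2.67 CPM in its TCDD livers and 7.39, 3.47 and 7.13 CPM in its vehicle livers (1.13 ± 0.33, adjusted p = 0.0216). Without vehicle replicate 1 or 3 the vehicle count was 1. In BXD-40/TyJ 3 genes were called under TCDD (6.21%), all higher, and 1 in vehicle (6.27%). The 3 were Mx2, Oasl1 (1.46 ± 0.24, adjusted p = 1.1e-05) and Isg15 (21.8, 13.1 and 25.9 CPM, 0.77 ± 0.24, adjusted p = 0.0427). The 1 was Mx2, with 13.3, 13.98 and 11.8 CPM, whose call ended without NZO/HILTJ among the strains averaged, as did that under TCDD. Leaving out a library gave 2 to 4 calls under TCDD and 0 to 1 in vehicle.

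In BXD100/RwwJ 1 gene, Oasl2, was called under TCDD (5.71%; 0.73 ± 0.23, adjusted p = 0.0443) and 5 in vehicle (4.48%), all higher: Cxcl9, Tap1, Mx2, Oasl2 and Rtp4. Cxcl9 had 15.8, 19.4 and 12.5 CPM in its TCDD livers and 27.9, 16.7 and 31.8 CPM in its vehicle livers (1.40 ± 0.36, adjusted p = 0.00917). Tap1, a peptide transporter of antigen presentation, had 45.1, 54.5 and 52.6 CPM and 64.8, 65.2 and 88.9 CPM (0.94 ± 0.24, adjusted p = 0.00997). The vehicle count was 1, 2 and 0 without replicates 1, 2 and 3, and the TCDD count 0 with any 1 of them left out. In C57BL6/J 2 genes were called under TCDD (14.5%), Ifit2 higher and Stat2 lower, and 4 in vehicle (7.16%), Oasl1, Isg15, Oasl2 and Irf7, all higher. Oasl1 had 15.2, 19.3 and 7.67 CPM in C57BL6/J TCDD livers and 24.5, 21.2 and 20.3 CPM in vehicle livers (1.13 ± 0.25, adjusted p = 0.00121), and Isg15 11.5, 15.1 and 16.7 CPM and 23.6, 21.4 and 24.0 CPM (0.94 ± 0.24, adjusted p = 0.00590). The TCDD count was 1, 1 and 0 without replicates 1, 2 and 3, the last being the library with male markers, and the vehicle count was 2 to 3 without any 1 library.

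CBA/J had calls in both directions, 1 under TCDD (5.98%) and 9 in vehicle (20.0%). Gbp2 was lower in both, with 1.83, 1.80 and 2.79 CPM in CBA/J TCDD livers (−1.56 ± 0.45, adjusted p = 0.0210) and 2.04, 3.25 and 3.65 CPM in vehicle livers (−1.26 ± 0.43, adjusted p = 0.0287). In vehicle Dtx3l (18.7, 35.3 and 36.6 CPM, −0.69 ± 0.15, adjusted p = 4.4e-04), Parp9, Trim25 and Iigp1 were lower too, and Bst2 (326, 285 and 279 CPM, 0.67 ± 0.15, adjusted p = 6.0e-04), Usp18, Irf7 and Oas1a were higher. Dtx3l had 37.04, 42.2 and 46.3 CPM and Bst2 241, 199 and 223.6 CPM under TCDD. Without CBA/J vehicle replicate 1 0 genes were called, and 7 and 5 without replicates 2 and 3. The TCDD count was 0 with any 1 of its 3 libraries left out. In C3HeB/FeJ 3 genes were called under TCDD (14.7%), Parp9 lower and Mx2 and Oas1a higher, and 3 in vehicle (7.14%), Parp9 lower and Stat2 and Oas1a higher. Parp9 had 12.7, 33.8 and 16.5 CPM in C3HeB/FeJ TCDD livers (−0.76 ± 0.16, adjusted p = 5.6e-04) and 28.9, 15.9 and 33.6 CPM in vehicle livers (−0.55 ± 0.16, adjusted p = 0.0186), and Stat2 85.7, 119.5 and 84.6 CPM and 127, 109.8 and 146.8 CPM (0.40 ± 0.12, adjusted p = 0.0226). The TCDD count was 0, 11 and 2 without replicates 1, 2 and 3 (32.7% of all genes were called without replicate 2), and the vehicle count 2, 1 and 2.

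BALB/CJ had 5 calls under TCDD (10.5%), Mx2, Ifi44, Parp9, Gbp3 and Gbp2, and 1 in vehicle (7.76%), Usp18, all higher. Usp18 had 20.1, 17.5 and 16.0 CPM in BALB/CJ TCDD livers and 15.6, 28.9 and 26.6 CPM in vehicle livers (0.83 ± 0.21, adjusted p = 0.00583). Leaving out a library gave 2 to 3 calls under TCDD and 0 to 1 in vehicle. NZO/HILTJ had 2 calls under TCDD (7.81%) and 2 in vehicle (10.1%), the same genes: Mx2, lower, and Parp9, higher. Parp9 had 37.7, 63.3 and 55.3 CPM in NZO/HILTJ TCDD livers (0.53 ± 0.14, adjusted p = 0.00867) and 49.97, 47.3 and 59.1 CPM in vehicle livers (0.47 ± 0.14, adjusted p = 0.0229). The call of Parp9 ended without TCDD replicate 2 or 3 and without vehicle replicate 1 or 3, and Mx2 stayed called with each of the 6 left out in turn. NOD/SHILTJ had 4 calls under TCDD (8.73%), Mx2, Isg15, Ifi35 and Ifit1, and 1 in vehicle (13.6%), Mx2, all higher. Mx2 had 7.79, 20.9 and 9.53 CPM in NOD/SHILTJ TCDD livers and 14.1, 13.7 and 8.38 CPM in vehicle livers, and its calls ended without NZO/HILTJ among the strains averaged. Without TCDD replicate 2 0 genes were called, and without vehicle replicate 1 or 2 also 0.

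The effect of TCDD was called for none of these genes on average. In the average of the 14 within-strain differences, TCDD minus vehicle, 0 of the 41 genes were called (0.179% of all genes), by edgeR or by DESeq2, and 8 had an unadjusted p below 0.05 (9 in DESeq2), against 5.94% of all genes. The difference was negative for 37 genes and positive for 4, with a median of −0.11 on the log2 scale, beside a median of −0.00 and 48.4% positive over all genes. These tallies moved with the libraries used. Without A/J vehicle replicate 3, 30 were negative, the median was −0.05 and 4 had an unadjusted p below 0.05, and without the 3 end libraries 31 were negative, the median was −0.05 and 6 had one. Without the 3 BXD lines 30 were negative, the median was −0.08 and 4 had one, and without the 3 libraries with other-tissue or male markers 36 were negative, the median was −0.13 and 10 had one. Over all 84 libraries the member level had a median of 0.05 under TCDD and 0.14 in vehicle. Within strains, the median difference of the 41 genes was negative in 9 of 14 strains. It was lowest in A/J (−0.65), C57BL6/J (−0.37) and BXD100/RwwJ (−0.33) and highest in CC019/TauUnc (0.44), where it was 0.13 without vehicle replicate 1.

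The 3 genes with the smallest p in the average were Mx2, Irgm2 and Stat2, none of them called. Mx2 had a lowest, median and highest of 0, 7.78 and 20.9 CPM in the 42 TCDD libraries and 0, 9.65 and 17.7 CPM in the 42 vehicle libraries, with a difference of −0.43 ± 0.16 (adjusted p = 0.579), lower in 10 strains. Without NZO/HILTJ, where the counts were at or near 0, it was −0.17 (0.790). Irgm2 had 14.8, 46.9 and 90.5 CPM under TCDD and 22.8, 50.8 and 284 CPM in vehicle, with −0.26 ± 0.10 (0.608), lower in 11 strains. Stat2 had 57.4, 94.4 and 139.6 CPM under TCDD and 68.0, 105 and 146.8 CPM in vehicle, with −0.11 ± 0.04 (0.667), lower in 10 strains. For all 3 the ranges of the treatment groups overlapped.

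Within single strains 1 difference was called in the 14 comparisons of 41 genes (0.228% of all gene and strain pairs). Gbp2 fell by 2.47 ± 0.52 in A/J (adjusted p = 0.00921; 80 genes, 0.494% of all, were called in that strain), from the libraries given above: 4.62, 4.36 and 8.41 CPM under TCDD and 5.40, 5.19 and 88.9 CPM in vehicle. The call rested on vehicle replicate 3. Without it the difference was 0.25 (0.945), 0 genes were called, and the median over the 41 genes was 0.06 in place of −0.65. Without vehicle replicate 1 or 2, which leaves replicate 3 more weight, 8 and 5 genes were called lower, and without TCDD replicate 1 or 2 0. In C57BL6/J 1 gene, Zbp1, was called lower without TCDD replicate 2, and in C3HeB/FeJ 3 genes, Rsad2, Parp14 and Dtx3l, without TCDD replicate 2.

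The strain by treatment test, which asks whether the effect of TCDD depended on the strain, called 0 of the 41 genes (0.0309% of all genes) in edgeR and in DESeq2, and 1 had an unadjusted p below 0.05, against 8.53% of all genes. The smallest p belonged to Isg15 (0.0217, adjusted 0.476), Gbp2 (0.0548, 0.606) and Irgm1 (0.0635, 0.632). Isg15 had 2.96, 11.9 and 41.1 CPM under TCDD and 1.56, 14.2 and 29.9 CPM in vehicle (lowest, median and highest of 42). Gbp2 had 1.80, 6.17 and 15.5 CPM under TCDD and 2.04, 6.65 and 88.9 CPM in vehicle, and Irgm1 18.5, 37.8 and 71.5 CPM and 20.1, 41.2 and 173 CPM. The highest vehicle values of Gbp2 and Irgm1 were those of A/J replicate 3.

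Other genes of the pathway were counted from a list of 80, of which 72 had a row and 67 were tested. Of these 33 were called between strains under TCDD and 42 in vehicle, beside 45.3% and 46.8% of all genes, with which the counts of each group below are also to be read. In edgeR 0 of the 67 were called in the average (0.179% of all genes). There 10 had an unadjusted p below 0.05, against 5.94% of all genes. In the strain by treatment test 0 were called (0.0309% of all genes), and 5 had an unadjusted p below 0.05, against 8.53% of all genes. Among ligands and receptors 5 of 5 tested genes were called under TCDD and 4 of 5 in vehicle, where Ifngr1, Ifngr2 and Ifnar1 had the smallest p. Ifnar1, a chain of the type I receptor, ran from 32.1 CPM in C57BL6/J to 53.8 CPM in BALB/CJ under TCDD and from 32.2 CPM in CBA/J to 51.1 CPM in BALB/CJ in vehicle. Of the interferon genes listed 5 had a row, and none passed the filter on low counts. Ifna2, Ifna4 and Ifne had 0 counts in the 84 libraries, Ifnb1 had 1 count and Ifng 42 counts spread over 24 libraries.

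Among signalling genes 4 of 12 were called under TCDD and 5 in vehicle, each below the share of all genes. Irf2, Irf5 and Irf8 were called in both. Irf2, a factor that competes with activators at interferon response elements, ran from 34.8 CPM in BALB/CJ to 66.9 CPM in BXD100/RwwJ under TCDD (adjusted p = 2.2e-06) and from 42.1 CPM in 129S1/SVIMJ to 70.7 CPM in C3HeB/FeJ in vehicle (3.6e-05). In nucleic acid sensing 3 of 11 were called under TCDD and 4 in vehicle, each below the share of all genes. In vehicle Tlr7, Myd88 and Tlr9 had the smallest p, of which Myd88 alone was called under TCDD. Myd88, the adaptor of most Toll-like receptors, ran from 37.3 CPM in NOD/SHILTJ to 92.1 CPM in BXD-40/TyJ under TCDD and from 41.8 CPM in C57BL6/J to 87.9 CPM in FVB/NJ in vehicle. FVB/NJ, low for the 11 genes above, was thus the highest vehicle group for this adaptor.

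Other interferon-induced genes were called for 16 of 28 under TCDD and 23 in vehicle, where Ifi202b, Gbp11 and Ifi27 had the smallest p. Ifi202b, of the DNA-binding p200 family, averaged 0 CPM in C57BL6/J under TCDD and in BXD-40/TyJ in vehicle, and was highest in BXD100/RwwJ, with 6.78 CPM under TCDD and 6.31 CPM in vehicle. Ifi27 ran from 55.8 CPM in FVB/NJ to 205 CPM in DBA1/J under TCDD and from 44.4 CPM in CC019/TauUnc to 238 CPM in DBA1/J in vehicle, so it shared its lowest strains with Irf7. Class I and antigen processing genes were called for 5 of 11 under TCDD and 6 in vehicle, near the share of all genes, with H2-K1, H2-D1 and H2-T23 having the smallest p in both. H2-K1 ran from 131.7 CPM in DBA1/J to 1819 CPM in C57BL6/J under TCDD and from 133.9 CPM in DBA1/J to 1987 CPM in BXD100/RwwJ in vehicle. These class I genes share sequence and differ between haplotypes, so their counts may depend on how reads of each haplotype aligned, which was not tested.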

How the data were processed

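RNA-seq of 84 livers was analysed from the read counts per gene that the authors deposited, 1 file per library. Per the submitters' processing notes the tools were FastQC 0.11.5, Trimmomatic 0.38, Bowtie2 2.3.2.25, HTSeq 0.6.1 and DESeq2 3.8, and the build was mm9; their settings are not given in the sources used here. Per the labels' protocols the kit was NEBNext Ultra, which does not mark strand, so overlapping genes may share reads. HTSeq's closing rows (46.7 to 52.6% of reads without a feature, 0.442 to 1.41% ambiguous) were left out. In the 18 BXD libraries 3.74 to 4.35% of reads aligned to several places, against 7.80 to 10.2% in the other 66. The part of this in levels of near copies and of other genes was not tested. Whether reads of every strain were aligned to the same reference is not known here, and its part in the strain differences was not tested. From the authors' deposited table only gene symbols and IDs were used.

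The counts were fitted with edgeR 4.0.16 (R 4.3.3; TMM scaling, its default expression filter, robust quasi-likelihood fit, means of 28 groups). Every p was adjusted over the 16195 genes tested (Benjamini-Hochberg) and called below 0.05. Log2 differences carry the SE implied by the F statistic. The member level used log2 CPM with a prior count of 1, and other CPM carry no TMM factor. Alternatives were DESeq2 1.42.0, other scalings, filters and sets of libraries, and each library left out in turn. The fit was tested on simulated data. Genes described with every group are the 8 with the smallest p among vehicle strain differences; those given per library are the leading 2 calls of each strain in vehicle, the called TCDD effects, and the 3 smallest p of the average and of the strain by treatment test. The gene list, the other lists and the rules were chosen with earlier results of these data known. Intervals and floors cover counting error only. Values of 1 other gene of the pathway are not reported here.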

Additional observations from a re-analysis of the deposited data

How the results depend on the processing

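No paired analysis was possible because replicate numbers were given in accession order and join no samples across groups. At an adjusted p below 0.01 the differences of single strains from the other 13 numbered 31 under TCDD and 57 in vehicle. The share of all gene and strain pairs at that threshold is not given here. The count of TCDD effects called within strains was 5 without the 3 libraries with other-tissue or male markers (Gbp2, Igtp, Irgm1, Irgm2 and Cxcl9, all lower in A/J), 2 with DESeq2 (Gbp2 and Igtp in A/J), 0 with each strain fitted alone and 0 without the 3 libraries at the ends of the member level. Gbp2 in A/J vehicle livers turned to −0.35 against the other 13 without those 3 libraries and also without A/J vehicle replicate 3 (range without single libraries −0.35 to 2.88), and its TCDD effect turned to 0.25 in both cases (range −2.98 to 0.25). With each library left out in turn, strain differences were called for 22 to 31 genes under TCDD and 34 to 36 in vehicle, single strains against the others for 52 to 72 under TCDD and no fewer than 75 in vehicle, and TCDD effects within strains for 0 to 8. The average effect and the strain by treatment test called 0 to 0. These fits kept the gene filter and the dispersions of the full data, left 2 libraries in a group, and took other strains' counts from the full data. The shares of all genes called in them are mostly not given, so the ranges are not read as particular to these genes. Over 40 results on single genes and 1182 alternative values, 1150 kept direction and call, 28 lost the call and 4 reversed, all of Gbp2 in A/J. Where not stated, the cause was not tested. Depth and 3 libraries per group limit what can be seen within 1 strain.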
